A study of Mus musculus with 6 samples.

Results

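The genes described here are 10 genes of hepatic stellate cells and of the collagen matrix, namely Col1a1, Col1a2, Col3a1, Col4a1, Dcn, Des, Acta2, Reln, Timp1 and Sparc. They were taken by symbol from 12393 genes that have a probe set of their own on the array, and every probe set paired with exactly 1 of these symbols was kept. That gave 17 probe sets, of which 14, for 9 genes, were bright enough to be tested, while 3 probe sets, among them the only one of Timp1, were too dim and are given as values. Livers came from wild-type male C57Bl/6 mice killed 6 h after an injection into the jugular vein of purified FGF15, of recombinant FGF19 or of vehicle, and the mice had no food during those 6 h. FGF15 is the hormone that the mouse ileum releases when bile acids return from the gut, and FGF19 is its human counterpart. Total liver RNA was hybridised to the Mouse Genome 430A 2.0 array, with 2 arrays for FGF15, 2 for FGF19 and 2 for vehicle. Nothing in the labels ties each array to its own mouse, and p-values therefore reflect only array-to-array spread, part of which may be technical.

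Stellate cells lie between hepatocytes and the sinusoidal endothelium, where they store vitamin A as retinyl esters. In injured liver they become myofibroblasts, which express smooth muscle actin and secrete the fibrillar collagens of scar tissue. The type I and type III collagens form fibrils, type IV collagen forms the sheet of basement membranes, and enzymes, small proteoglycans and matricellular proteins govern how these chains are folded, trimmed and assembled.

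RefSeq (GRCm38.p6) gave an upstream sequence for 8 of the 10 genes. The 250 bases before the annotated start are shown for 2 fibrillar collagen genes whose brighter probe set was lower with FGF15 and for Acta2, whose groups were ordered differently. For Col4a1, 30 bases of that window are shown. All run 5′ to 3′ on the strand of the gene, at chr6:4505368-4505617 (plus strand) for Col1a2, chr1:45311288-45311537 (plus) for Col3a1, chr8:11312957-11312986 (minus) for Col4a1 and chr19:34255374-34255623 (minus) for Acta2. Capitals mark every match to 4 motifs, searched on both strands: the CCAAT box (CCAAT), the GC box (GGGCGG), the TATA box (TATAAA) and the CArG box, the site of serum response factor, taken here with at most 1 G or C among its 6 middle letters.
Col1a2: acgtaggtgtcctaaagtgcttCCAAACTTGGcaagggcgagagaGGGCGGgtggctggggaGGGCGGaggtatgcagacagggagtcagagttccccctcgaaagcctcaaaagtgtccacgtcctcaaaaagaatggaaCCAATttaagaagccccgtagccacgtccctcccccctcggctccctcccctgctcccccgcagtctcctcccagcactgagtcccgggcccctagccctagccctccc
Col3a1: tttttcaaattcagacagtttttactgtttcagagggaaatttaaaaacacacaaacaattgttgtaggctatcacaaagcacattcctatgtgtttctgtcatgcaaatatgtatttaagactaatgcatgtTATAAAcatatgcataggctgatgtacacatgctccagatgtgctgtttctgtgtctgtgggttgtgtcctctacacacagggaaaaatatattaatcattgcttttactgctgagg
Col4a1: tggtgcttgcccgggATTGGcgagccaagg
Acta2: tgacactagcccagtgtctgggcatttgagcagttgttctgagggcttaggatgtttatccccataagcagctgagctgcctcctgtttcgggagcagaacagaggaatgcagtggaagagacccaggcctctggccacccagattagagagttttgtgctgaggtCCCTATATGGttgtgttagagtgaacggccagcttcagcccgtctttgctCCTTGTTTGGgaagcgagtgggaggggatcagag

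The letters differed between these genes. The Col1a2 window held a CCAAT box 109 bases before the start, GC boxes at 205 and 188 bases and 1 CArG box at 228 bases. The Col3a1 window held only a TATA box, 117 bases before the start. Col4a1 held 1 match in its whole window of 250 bases, of which 30 are shown, a CCAAT box on the opposite strand at 145 bases. The annotated starts of Col4a1 and Col4a2, the partner chain of type IV collagen, lie 21 bases apart on opposite strands. Acta2 held 2 CArG boxes, at 84 and 34 bases. Among 32817 mouse windows of 250 bases, 33.8% held a CCAAT box, 32.7% a GC box, 12.4% a TATA box and 8.6% such a CArG box. No motif was shared by all 4 genes.

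The values are the authors' linear signals, each array having a trimmed mean of about 200.1. The median signal was 55.2 and 51.3 on the FGF15 arrays, 50.8 and 52.2 on the FGF19 arrays and 61.4 and 59.4 on the vehicle arrays. In all, 46 probe sets of 32 genes of other tissues, such as eye, testis and pancreas, had a median signal of 7.02 and a 95th percentile of 42.4, which describes what a silent gene reads here. A few read higher: Gnat1 read 167.9 to 194.7 over the 6 arrays and Prm1 91.8 to 172.2, within the range of some collagen signals below. The first FGF19 array stood apart in its controls: its 18S ribosomal RNA probe set read 32.3 (the others read 4.25 to 5.82), and actin had a 3′ to 5′ ratio of 1.63 there (1.30 to 1.39 elsewhere). Calls with FGF19 are therefore given with and without that array. As a check on the treatment, the brightest probe set of Cyp7a1, which catalyses the first step from cholesterol to bile acids, read 91.5 and 89.4 with FGF15 and 38.2 and 32.1 with FGF19, against 2677 and 2572 with vehicle. Nr0b2, the nuclear receptor SHP that represses Cyp7a1, read 269.1 and 274.1 with FGF15 and 284.0 and 263.3 with FGF19, against 120.3 and 115.5 with vehicle.

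The genes named for stellate cells were only partly measurable. Dcn, the proteoglycan decorin, read 1461 to 1828 over the 6 arrays, and Reln, the secreted glycoprotein reelin that marks stellate cells, read 319.6 to 394.4. The probe sets of Des, the intermediate filament desmin, reached at most 34.5, and that of Timp1, an inhibitor of matrix metalloproteinases, at most 16.8. Both lay in the range of silent genes. The 1 Des probe set that was tested (1426732_at) read 7.44 and 12.6 with FGF15 and 15.9 and 16.9 with FGF19, against 34.5 and 5.11 with vehicle. Its differences of -0.24 (limma adjusted p = 0.624) and -0.04 (adjusted p = 0.945) on the log2 scale used below show no change detectable at this signal. Timp1 read 6.28 and 15.8 with FGF15 and 16.8 and 3.04 with FGF19, against 16.2 and 12.8 with vehicle, so all groups overlapped.

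**Figure D1:**
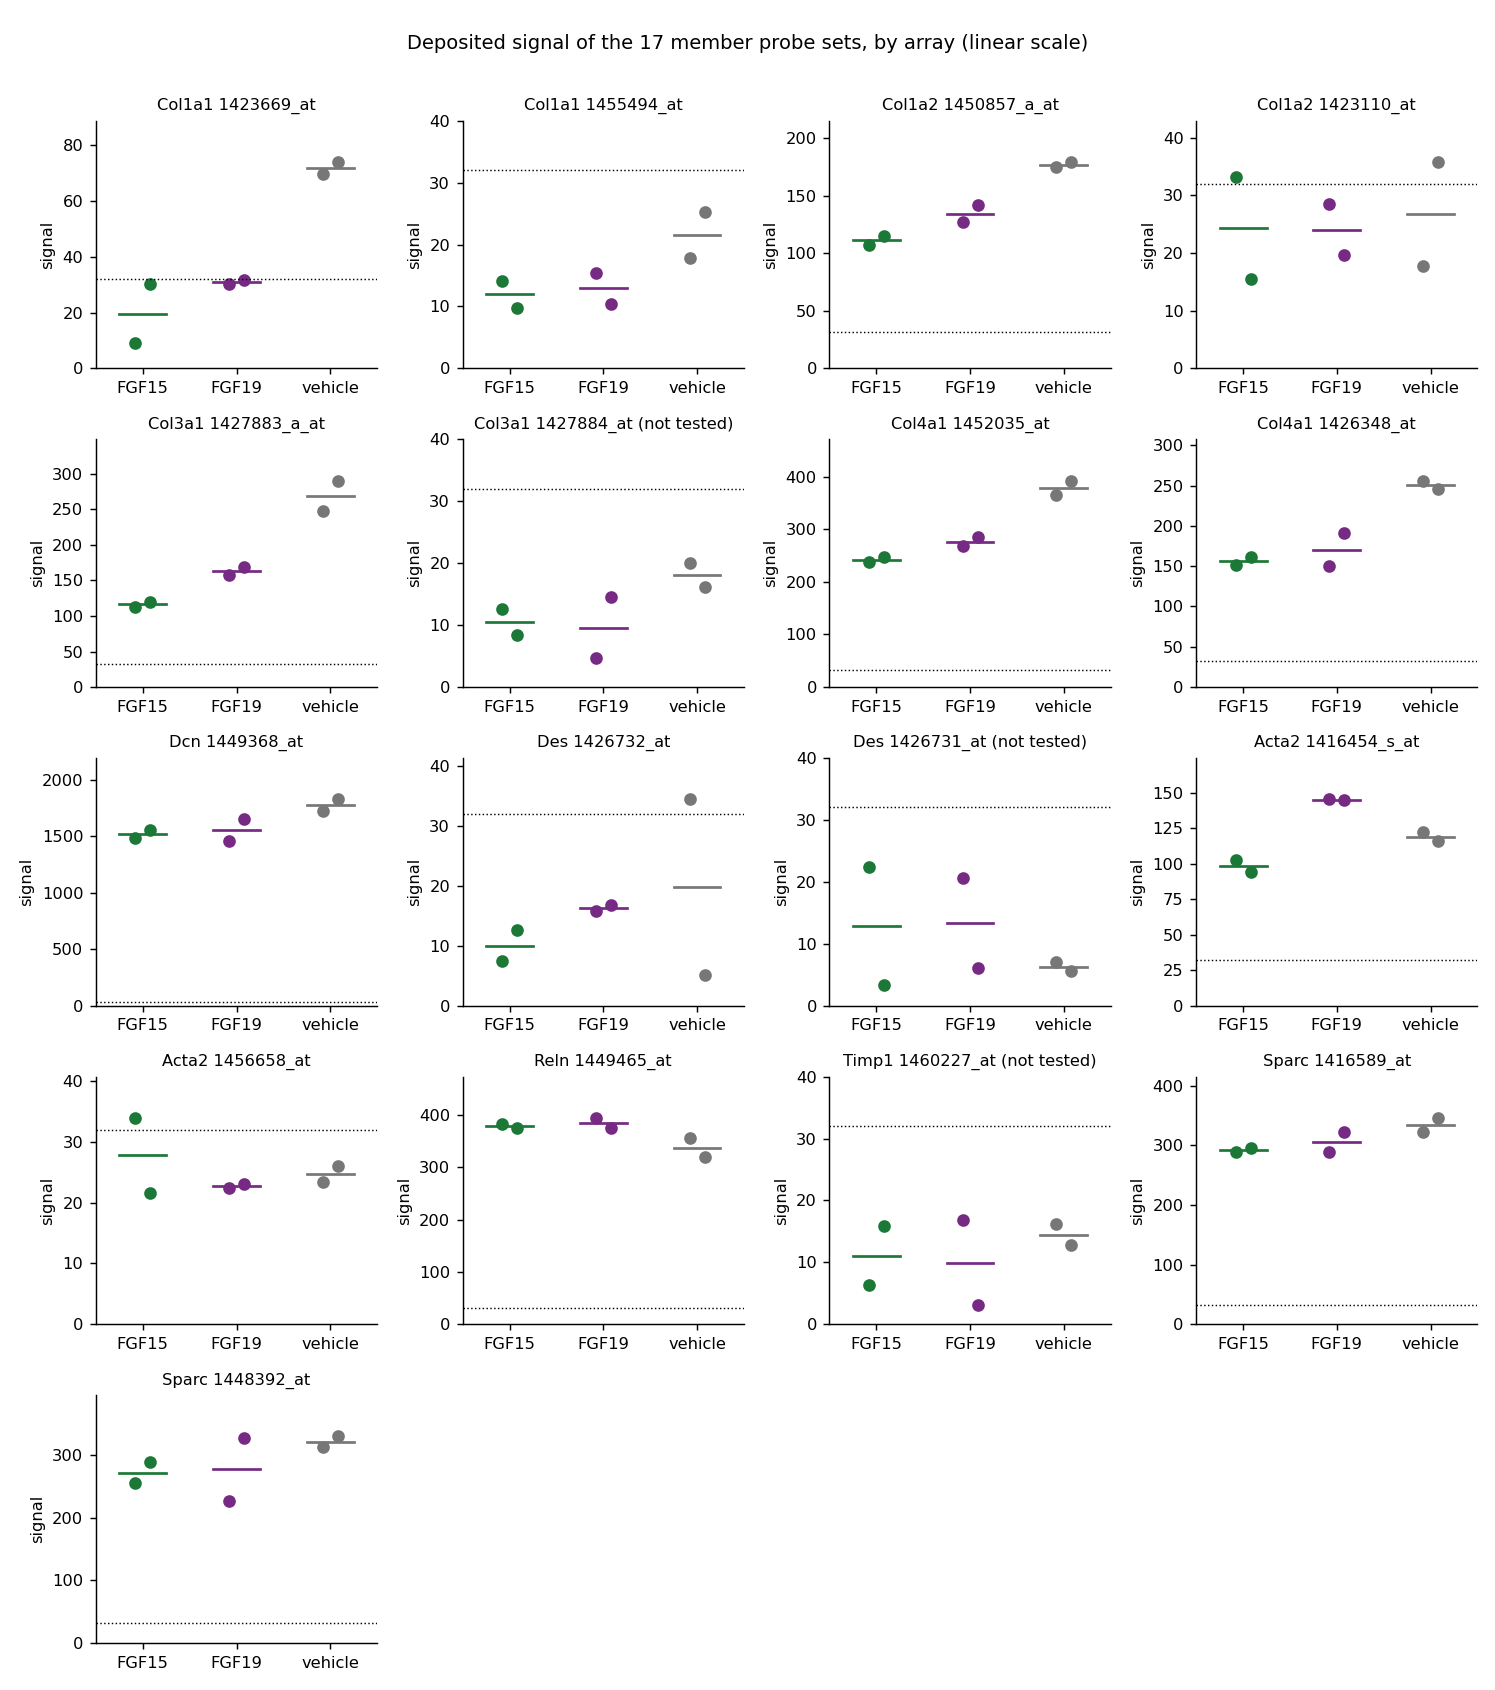
Deposited signal of each of the 17 probe sets on the 2 FGF15, 2 FGF19 and 2 vehicle arrays, on linear axes that start at 0, with points for arrays and a bar for each group mean. The dotted line stands at a signal of 32. The brighter Col3a1 probe set and both Col4a1 probe sets had every FGF15 and FGF19 array below both vehicle arrays, while the Des and Timp1 panels scatter near the floor.

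Each of the 4 collagen genes had at least 1 probe set that was lower after FGF15. Of the 14 probe sets tested, 5 were called lower with FGF15 and 0 higher, at an adjusted p under 0.05 (limma, Benjamini-Hochberg over all 16969 probe sets tested). Over all probe sets 5.81% were called lower and 4.73% higher. The 5 belonged to 4 genes, Col1a1, Col1a2, Col3a1 and Col4a1, and no probe set of Dcn, Des, Acta2, Reln or Sparc passed. Differences are given as log2(signal + 32), on which dim genes appear to change less than they did. Their median over the 14 probe sets was -0.23, beside -0.05 over all probe sets, and 12 of the 14 differences were below 0, beside 58.5% of all. An unadjusted p was under 0.05 for 6 of the 14, beside 24.6%. The signals of 10 of the 14 lay below both vehicle arrays on both FGF15 arrays, beside 32.9% of all probe sets, and 1 lay above, beside 21.2%. Without the first FGF15 array 3 of the 14 were called, and 2 were called without the first or without the second vehicle array. In whole liver, fewer cells of a type and less RNA per cell cannot be told apart.

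Col3a1, the single chain of type III collagen, fell furthest among the collagen probe sets with signals clearly above those of silent genes. Its brighter probe set (1427883_a_at) read 113.1 and 119.5 with FGF15 and 157.7 and 169.3 with FGF19, against 248.5 and 290.7 with vehicle. No groups overlapped, and the FGF19 arrays lay between the others. On the log2 scale FGF15 minus vehicle was -1.02 ± 0.11 (SE, n = 2 against 2; limma adjusted p = 0.000313). FGF19 minus vehicle was -0.62 ± 0.11 (adjusted p = 0.00514), and -0.58 without the first FGF19 array (adjusted p = 0.0441). Without the second vehicle array FGF19 minus vehicle was -0.52 and missed the threshold (adjusted p = 0.0560). As a share of the vehicle mean, the signal was 43.1% with FGF15 and 60.6% with FGF19. FGF19 minus FGF15 was 0.40 (95% interval 0.16 to 0.64, not adjusted; limma adjusted p = 0.0855). A dimmer Col3a1 probe set (1427884_at) was under 32 on every array and was not tested.

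Col4a1, the alpha 1 chain of type IV collagen, was measured by 2 probe sets that moved alike. The brighter, 1452035_at, read 237.3 and 247.1 with FGF15 and 267.7 and 284.5 with FGF19, against 364.7 and 392.2 with vehicle. The other, 1426348_at, read 151.3 and 161.3 with FGF15 and 149.6 and 191.3 with FGF19, against 256.1 and 246.3 with vehicle. For both, all FGF15 and FGF19 arrays lay below the vehicle arrays. FGF15 minus vehicle was -0.58 ± 0.09 for the brighter (limma adjusted p = 0.00223) and -0.59 ± 0.11 for the other (adjusted p = 0.0104). FGF19 minus vehicle was -0.41 ± 0.09 for the brighter (adjusted p = 0.0131) and -0.49 ± 0.11 for the other (adjusted p = 0.0233). Without the first FGF19 array neither passed, at -0.37 (adjusted p = 0.0822) and -0.34 (adjusted p = 0.144). Neither FGF19 call was kept without the first (adjusted p = 0.0532 and 0.132) or the second vehicle array (0.1002 and 0.0900), nor with arrays centred on their medians (0.0994 and 0.0783). The brighter probe set kept its FGF15 call under all 21 alternative settings, and the other under 15 of 19. It lost it without the first FGF15 array (adjusted p = 0.0540), without the first (0.0796) or the second vehicle array (0.0556) and with no intensity trend in the variance (0.0507).

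Col1a1 and Col1a2, the chains of type I collagen, gave values that differed between probe sets. Col1a2 (1450857_a_at) read 107.6 and 114.9 with FGF15 and 127.0 and 141.9 with FGF19, against 174.9 and 179.6 with vehicle, so that no groups overlapped. FGF15 minus vehicle was -0.55 ± 0.11 (limma adjusted p = 0.0103), while FGF19 minus vehicle, -0.33 ± 0.11, missed the threshold (adjusted p = 0.0759; -0.27 and adjusted p = 0.305 without the first FGF19 array). The second Col1a2 probe set (1423110_at) read 15.5 to 35.8 with all groups overlapping, and its 2 differences from vehicle were both -0.06. With the 2 probe sets averaged, FGF15 minus vehicle was -0.30 and was not called (adjusted p = 0.163). Leaving out the first FGF15 array (adjusted p = 0.0506), the first vehicle array (0.0610) or the second vehicle array (0.0708) also ended the call.

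Col1a1 (1423669_at) read 9.09 and 30.2 with FGF15 and 30.1 and 31.6 with FGF19, against 69.6 and 74.1 with vehicle. The vehicle arrays were above the 95th percentile of silent genes and all 4 hormone arrays below it, so the size of the fold depends on the constant added. FGF15 minus vehicle was -1.04 ± 0.20 (limma adjusted p = 0.0106), with -1.37 to -0.66 over 20 alternative settings, and it was not called without the first (adjusted p = 0.0602) or the second vehicle array (adjusted p = 0.0704). FGF19 minus vehicle was -0.72 ± 0.20 (adjusted p = 0.0484), and was called in 9 of 20 alternative settings and not without the first FGF19 array (-0.71, adjusted p = 0.185). The second Col1a1 probe set (1455494_at) was under 32 on every array and was not called against vehicle, at -0.28 with FGF15 (adjusted p = 0.399) and -0.25 with FGF19 (adjusted p = 0.436).

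**Figure D2:**
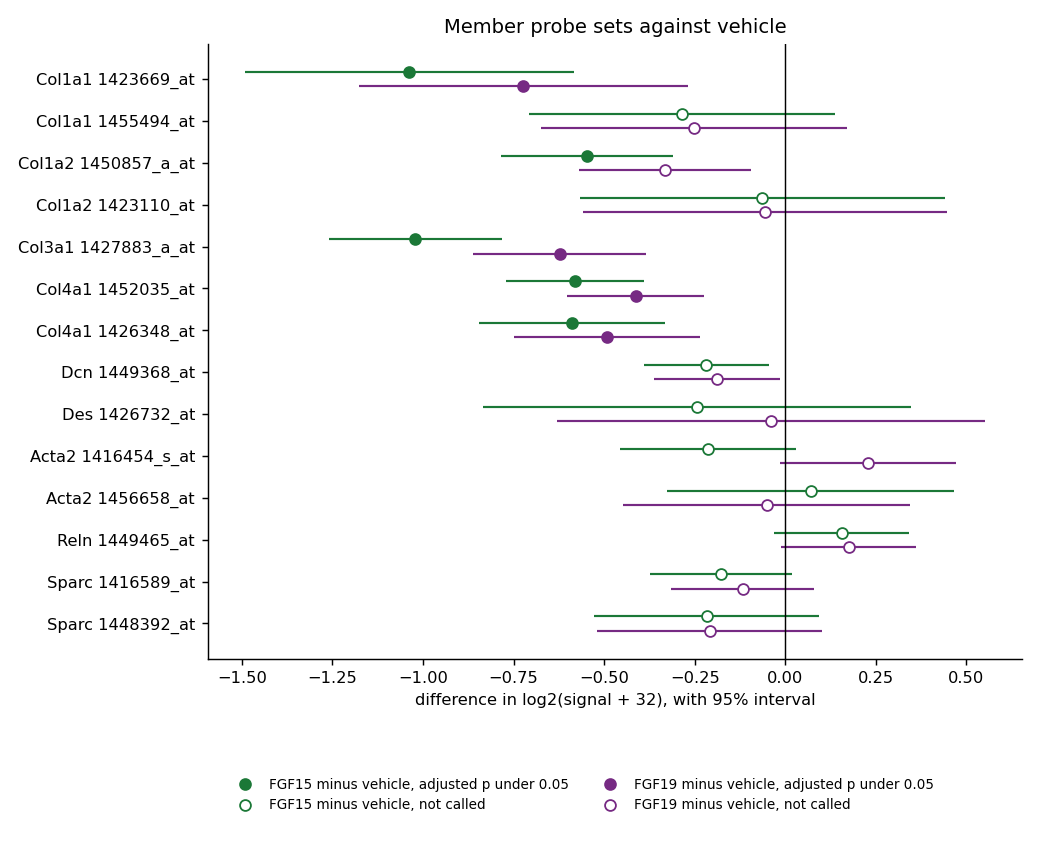
Difference from vehicle in log2(signal + 32) for the 14 tested probe sets, with 95% intervals that are not adjusted, FGF15 and FGF19 each against the same 2 vehicle arrays. Filled points passed an adjusted p of 0.05: 5 with FGF15 and 4 with FGF19, all collagens below 0, with Col3a1 at -1.02 and -0.62.

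After FGF19, 4 of the 14 probe sets were called lower and 0 higher, beside 6.34% and 5.15% of all probe sets. They were those of Col1a1, Col3a1 and Col4a1 described above. The median difference was -0.20, beside -0.07 over all probe sets, and 12 of the 14 were below 0, beside 61.8%. An unadjusted p was under 0.05 for 6, beside 26.5%. The groups did not overlap, with FGF19 lower, for 8 of the 14, beside 36.9% of all, and with FGF19 higher for 2, beside 20.3%. Without the first FGF19 array 1 of the 14 was called, that of Col3a1. Without the first vehicle array 1 was called, and without the second vehicle array 0. The FGF15 and FGF19 differences share the vehicle arrays, so they are not separate evidence.

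**Figure D3:**
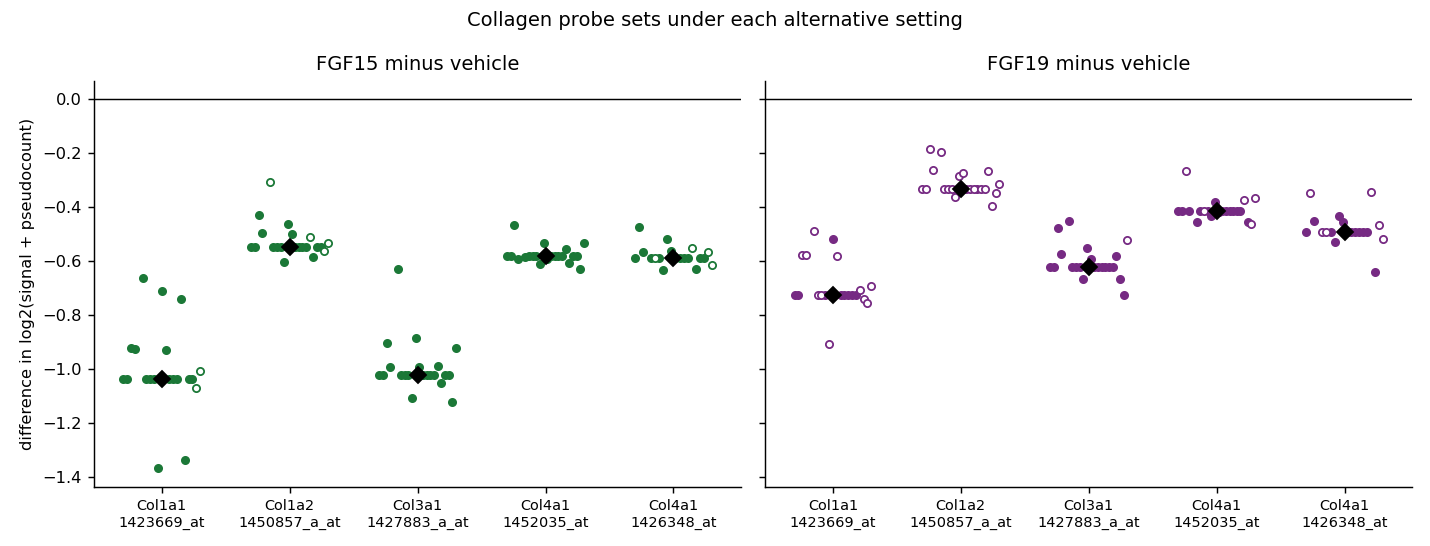
Difference from vehicle for the collagen probe sets under the values as reported and each alternative setting, FGF15 in the left panel and FGF19 in the right, on the log2 scale of the setting. Diamonds are the values as reported, filled circles are alternatives that passed and open circles those that did not. All points for Col3a1 and Col4a1 lie below 0, and Col3a1 with FGF15 stays between -1.12 and -0.63.

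The matrix glycoproteins of these cells did not pass the test. Dcn, which binds collagen fibrils, read 1485 and 1558 with FGF15 and 1461 and 1652 with FGF19, against 1722 and 1828 with vehicle. Both hormone groups lay below the vehicle arrays, but FGF15 minus vehicle was -0.22 ± 0.08 (limma adjusted p = 0.113) and FGF19 minus vehicle -0.19 ± 0.08 (adjusted p = 0.155; -0.10 and 0.494 without the first FGF19 array). Quantile normalization (adjusted p = 0.0498) and cyclic loess (adjusted p = 0.0433) brought the FGF15 difference past the threshold. Sparc, a matricellular protein that binds collagen, had 2 probe sets. The brighter (1416589_at) read 288.4 and 294.9 with FGF15 and 288.7 and 322.9 with FGF19, against 322.4 and 346.1 with vehicle. FGF15 lay below vehicle and FGF19 overlapped it, and the differences were -0.18 (95% interval -0.37 to 0.02, adjusted p = 0.249) and -0.12 (-0.31 to 0.08, adjusted p = 0.434; -0.04 and 0.861 without the first FGF19 array). The other Sparc probe set gave -0.22 and -0.21, neither called, and its FGF19 difference was 0.03 without the first FGF19 array.

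Reln was the 1 bright gene of the 10 whose signals lay above vehicle with both hormones. It read 383.1 and 374.9 with FGF15 and 394.4 and 375.0 with FGF19, against 355.3 and 319.6 with vehicle. The groups did not overlap with vehicle, but FGF15 minus vehicle, 0.16 ± 0.08, was not called (limma adjusted p = 0.289), nor was FGF19 minus vehicle, 0.17 ± 0.08 (adjusted p = 0.216; 0.14 and adjusted p = 0.507 without the first FGF19 array). Centring each array on its median gave 0.32 for FGF19, which passed (adjusted p = 0.0383).

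Acta2, smooth muscle alpha actin and the usual mark of activated stellate cells, was on opposite sides of vehicle. Its brighter probe set (1416454_s_at, a kind that can also bind related transcripts) read 102.7 and 94.1 with FGF15 and 145.4 and 144.7 with FGF19, against 122.4 and 116.0 with vehicle. No groups overlapped: the FGF15 arrays were the lowest, the FGF19 arrays the highest. Neither difference from vehicle was called, at -0.21 ± 0.11 with FGF15 (limma adjusted p = 0.264) and 0.23 ± 0.11 with FGF19 (adjusted p = 0.217; 0.432 without the first FGF19 array). FGF19 minus FGF15 was 0.44 ± 0.11 (95% interval 0.20 to 0.69, adjusted p = 0.0630), and it passed with median centring (adjusted p = 0.0467) and cyclic loess (adjusted p = 0.0468). Without the first FGF19 array it was 0.44 with an adjusted p of 0.245. The dimmer Acta2 probe set (1456658_at) read 21.7 to 33.9 and showed no such order.

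Between the hormones, 0 of the 14 probe sets was called by limma at an adjusted p under 0.05, beside 3.31% of all probe sets (1.97% higher and 1.34% lower with FGF19), and 2 had an unadjusted p under 0.05, those of Col3a1 and Acta2, beside 15.4%. The groups did not overlap, with FGF19 higher, for 5 of the 14, beside 19.9% of all, and with FGF19 lower for 0, beside 24.8%. The difference was below 0 for 1 of the 14, beside 54.5%. For Col1a2 the difference was 0.22 (95% interval -0.02 to 0.45), and for the brighter Col4a1 probe set 0.17 (-0.02 to 0.36), so both intervals included 0 and also differences of those sizes.

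Related genes were read through 1 probe set each, that of highest mean signal, from lists chosen with earlier results known. Other probe sets of these genes were added once their values were known. For related genes, 40 of the calls named against vehicle were followed in the 6 fits that left out 1 array. The call of the second Pcolce probe set with FGF15 was not followed. Of the 40, 7 passed in all 6 fits: Steap4 and Tlcd4 with both hormones, Rgs5 with FGF15, and Skil and 1 probe set of Cald1 with FGF19. The other calls of the 40 were lost in at least 1 of these fits. The 40 pool the calls of both hormones. Leaving out an array of 1 hormone does not change the other hormone's difference from vehicle. How many of the 40 then pass therefore says little about that array. Without the first vehicle array 11 passed, and 11 without the second. Of 16 other collagen chains tested, 2 were lower with FGF15 and 2 with FGF19, and 0 were higher with either. The median differences were -0.24 and -0.18. Beside these and the list counts below stand the shares of all probe sets. With FGF15, 5.81% were called lower and 4.73% higher, 24.6% had an unadjusted limma p under 0.05, and the median was -0.05. With FGF19 these were 6.34%, 5.15%, 26.5% and -0.07. In a list of this size, 1 call is near the share of all probe sets. Col4a2 (chosen after its values were seen, as the partner chain of Col4a1) read 111.3 and 107.8 with FGF15 and 117.0 and 111.4 with FGF19, against 144.7 and 179.8 with vehicle. It fell with FGF15 (-0.45, limma adjusted p = 0.0415) and missed the threshold with FGF19 (-0.40, adjusted p = 0.0591). Its FGF15 call was lost in all 6 fits without 1 array, at -0.58 to -0.32. Col8a1, a short-chain network collagen, was the other call with FGF15 (-0.72, adjusted p = 0.0328), on signals of at most 34.7 on any array. It passed in 10 of 19 alternative settings and in 0 of the 6 fits without 1 array (adjusted p = 0.0632 to 0.191), and ranged over the settings from -1.09 to -0.43. With FGF19, Col6a2, a beaded filament chain (-0.71, adjusted p = 0.0392), and Col18a1, the basement membrane chain that yields endostatin (-0.27, adjusted p = 0.0368), were lower. Neither passed without the first FGF19 array.

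Among 17 enzymes and helpers of collagen maturation, 1 rose and 1 fell with each hormone, and the median differences were -0.17 with FGF15 and -0.14 with FGF19. Pcolce, which enhances the removal of the procollagen C-propeptide, read 48.7 and 45.3 with FGF15 and 54.0 and 45.0 with FGF19, against 89.8 and 102.7 with vehicle. It fell with FGF15 (-0.70, limma adjusted p = 0.0122) and with FGF19 (-0.65, adjusted p = 0.0162; -0.73 and 0.0493 without the first FGF19 array). P3h1, a prolyl 3-hydroxylase of collagen, rose with FGF15 (0.46, adjusted p = 0.0485) and with FGF19 (0.70, adjusted p = 0.00683; 0.0297 without that array). The FGF15 call was lost in all 6 fits without 1 array (adjusted p = 0.0666 to 0.161) and passed in 8 of 21 alternative settings. A dimmer P3h1 probe set gave -0.04 and 0.10 and was not called. With the 2 probe sets averaged, P3h1 missed the threshold with FGF15 (0.21, adjusted p = 0.283) and with FGF19 (0.40, adjusted p = 0.0502). Plod1, a lysyl hydroxylase, was not called, at -0.29 with FGF15 and -0.32 with FGF19. A second Pcolce probe set (1448433_a_at) was lower with FGF15 (-0.77, adjusted p = 0.0115) and missed the threshold with FGF19 (-0.52, adjusted p = 0.0570).

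Of 19 other matrix and matricellular proteins, 1 fell with FGF15 (median of the list -0.10), while 1 rose and 2 fell with FGF19 (median -0.03). Ccn2, connective tissue growth factor, which is induced by TGF beta and stimulates collagen synthesis, read 84.0 and 100.4 with FGF15 and 258.5 and 230.2 with FGF19, against 151.8 and 161.2 with vehicle, with no overlap between groups. It fell with FGF15 (-0.60, limma adjusted p = 0.00825) and rose with FGF19 (0.55, adjusted p = 0.0127). Without the first FGF19 array the rise was 0.48 and was not called (adjusted p = 0.102). Bgn, the proteoglycan biglycan (-0.37, adjusted p = 0.0309), and Vtn, vitronectin made by hepatocytes (-0.31, adjusted p = 0.0451), fell with FGF19 on their brightest probe sets, and neither passed without the first FGF19 array. A second Bgn probe set was called lower with FGF15 (-0.37, adjusted p = 0.0229) and not with FGF19 (-0.08). A dimmer one (1437889_x_at) was not called, at -0.35 with FGF15 (adjusted p = 0.235) and 0.18 with FGF19 (adjusted p = 0.537). With all these probe sets averaged, Bgn was not called with FGF19 (-0.09, adjusted p = 0.482).

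Of 11 basement membrane partners of type IV collagen, 1 fell with FGF15 (median of the list -0.20), while 1 rose and 1 fell with FGF19 (median -0.10). Hspg2, the proteoglycan perlecan, fell with FGF15 (-0.85, limma adjusted p = 0.0241), and its second probe set was not called (-0.29). The call was lost without the second FGF15 array, where the difference was -0.49 (adjusted p = 0.0780), and without the first (0.120) or the second vehicle array (0.104). Without the first FGF15 array it was -1.21. Lama3, a laminin chain, fell with FGF19 (-0.75, adjusted p = 0.0214; -0.93 and 0.0327 without the first FGF19 array). Nid1, which links laminin to type IV collagen, read 102.7 and 108.6 with FGF15 and 197.1 and 205.0 with FGF19, against 143.6 and 144.8 with vehicle, again with no overlap. It rose with FGF19 (0.40, adjusted p = 0.0302; 0.43 and 0.107 without the first FGF19 array), and with FGF15 it missed the threshold (-0.36, adjusted p = 0.0512).

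Of 17 matrix proteases and inhibitors, 0 was called by limma against vehicle with either hormone, and 3 with FGF15 and 6 with FGF19 had an unadjusted p under 0.05. The median differences were both -0.09. The smallest p-values belonged to Timp3 (0.03 with FGF15, 0.30 with FGF19), Plat (-0.51 and -0.43) and Plg (-0.15 and -0.31). With FGF19, Plg was -0.18 without the first FGF19 array (adjusted p = 0.0993). A second Timp3 probe set was called higher with FGF19 (0.46, adjusted p = 0.0294; 0.51 and 0.0833 without the first FGF19 array). Further Timp3 probe sets were not called with FGF19, at -0.04 (1419088_at, adjusted p = 0.893) and 0.21 (1449334_at, adjusted p = 0.464). Of 5 genes of the Reelin pathway tested, 1 fell with FGF15 and 0 was called with FGF19. With each hormone 4 had an unadjusted limma p under 0.05. The medians were -0.37 with FGF15 and -0.32 with FGF19. Dab2, an endocytic adaptor related to the reelin signalling adaptor, was that gene (-0.62, limma adjusted p = 0.0164). Its dimmer probe sets were not called with FGF15, at -0.25 (1430604_a_at, adjusted p = 0.375) and -0.42 (1423805_at, adjusted p = 0.121). The other 2 with the smallest p-values, Vldlr, a reelin receptor, and Itgb1, the beta 1 integrin, were not called. Vldlr gave 0.61 and 0.62, on signals under 32, and Itgb1 gave -0.37 and -0.32. These Itgb1 values are themselves the medians of the list, and its vehicle arrays read 900.1 and 659.6. A second bright Itgb1 probe set (1426918_at) gave -0.01 with FGF15 and 0.18 with FGF19. A dimmer one (1427771_x_at) gave 0.01 and -0.20, and neither was called.

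Of 18 other markers of stellate cells and fibroblasts, 2 rose and 2 fell with FGF15, and 2 rose and 1 fell with FGF19. The medians of the list were 0.12 with FGF15 and 0.0038 with FGF19. Rgs5, a regulator of G protein signalling found in pericytes, fell with FGF15 (-0.54, limma adjusted p = 0.00184) and with FGF19 (-0.36, adjusted p = 0.0157; -0.39 and 0.0517 without the first FGF19 array). It read 299.5 and 293.0 with FGF15 and 347.8 and 333.3 with FGF19, against 445.4 and 446.7 with vehicle. The other call with FGF15 was Vim, the intermediate filament vimentin (-0.52, adjusted p = 0.00911), which was picked out once its values were known. Steap4, a metalloreductase (1.01 with FGF15, 1.22 with FGF19), and Tlcd4, a transmembrane protein (0.63 and 0.73), rose with both hormones, also without the first FGF19 array. Steap4 is also expressed by hepatocytes. Between the hormones, Lrat, which makes the retinyl esters that stellate cells store, was lower with FGF19 (-0.65, adjusted p = 0.0371) and was likewise picked out afterwards. That call was lost in all 6 fits without 1 array (adjusted p = 0.0563 to 0.166; -0.71 and 0.120 without the first FGF19 array).

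Of 12 smooth muscle contractile genes, 1 rose and 1 fell with FGF15, and 2 rose and 2 fell with FGF19. The medians were -0.22 with FGF15 and -0.04 with FGF19. Tpm1, a tropomyosin, fell with FGF15 (-0.56, limma adjusted p = 0.00897) and with FGF19 (-0.41, adjusted p = 0.0371). Tpm2, another tropomyosin, rose with FGF15 (0.64, adjusted p = 0.0206) and with FGF19 (0.61, adjusted p = 0.0244). Cald1, caldesmon, rose with FGF19 (0.32, adjusted p = 0.0167; 0.0473 without the first FGF19 array), while Tpm1 (0.178) and Tpm2 (0.0994) were not called without it. The other fall with FGF19 was Mylk, myosin light chain kinase (-0.40, adjusted p = 0.0245; -0.52 and 0.0197 without the first FGF19 array), picked out afterwards. Other Cald1 probe sets went different ways. A second bright one (1424768_at) read 1207 and 1219 with FGF15 and 1222 and 1346 with FGF19, against 1407 and 1462 with vehicle, so that both hormones lay below vehicle. It was not called (-0.24, adjusted p = 0.0651 with FGF15, and -0.16, adjusted p = 0.191 with FGF19). Another probe set (1424770_at) was called higher with FGF15 (0.29, adjusted p = 0.0311) and with FGF19 (0.47, adjusted p = 0.00277; 0.00795 without the first FGF19 array). With the probe sets averaged, Cald1 was 0.21 with FGF19 (adjusted p = 0.0451).

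Of 22 genes of the TGF beta and PDGF pathway, 1 rose and 3 fell with FGF15, and 2 rose and 1 fell with FGF19. The medians were -0.02 with FGF15 and 0.0069 with FGF19. Tgfbr2, the TGF beta receptor that binds the ligand, read 407.9 and 435.6 with FGF15 and 683.6 and 684.1 with FGF19, against 530.8 and 512.4 with vehicle. It fell with FGF15 (-0.29, limma adjusted p = 0.0342) and rose with FGF19 (0.37, adjusted p = 0.0107; 0.37 and 0.0513 without the first FGF19 array). Its second probe set (1425444_a_at) was not called, at -0.45 with FGF15 (adjusted p = 0.107) and 0.09 with FGF19 (adjusted p = 0.763). A further Tgfbr2 probe set (1422019_at) read 0.91 to 10.3 and was too dim to be tested. With all Tgfbr2 probe sets averaged, the dim one included, neither difference from vehicle was called. They were -0.24 with FGF15 (adjusted p = 0.136) and 0.09 with FGF19 (adjusted p = 0.556). These averages therefore do not compare the tested probe sets alone. Pdgfa, a ligand for platelet-derived growth factor receptors, fell with FGF15 (-0.64, adjusted p = 0.0160) and with FGF19 (-0.71, adjusted p = 0.00953; -0.64 and 0.0681 without that array). Skil, a repressor in the TGF beta pathway, rose with FGF15 (0.37, adjusted p = 0.0282) and with FGF19 (0.57, adjusted p = 0.00329; 0.0226 without that array). The other fall with FGF15 was Tgfbi, a matrix protein induced by TGF beta (-0.33, adjusted p = 0.0258), picked out afterwards. A second Pdgfa probe set (1449187_at) was not called, at -0.43 with FGF15 (adjusted p = 0.0829) and -0.38 with FGF19 (adjusted p = 0.107).

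**Figure D4:**
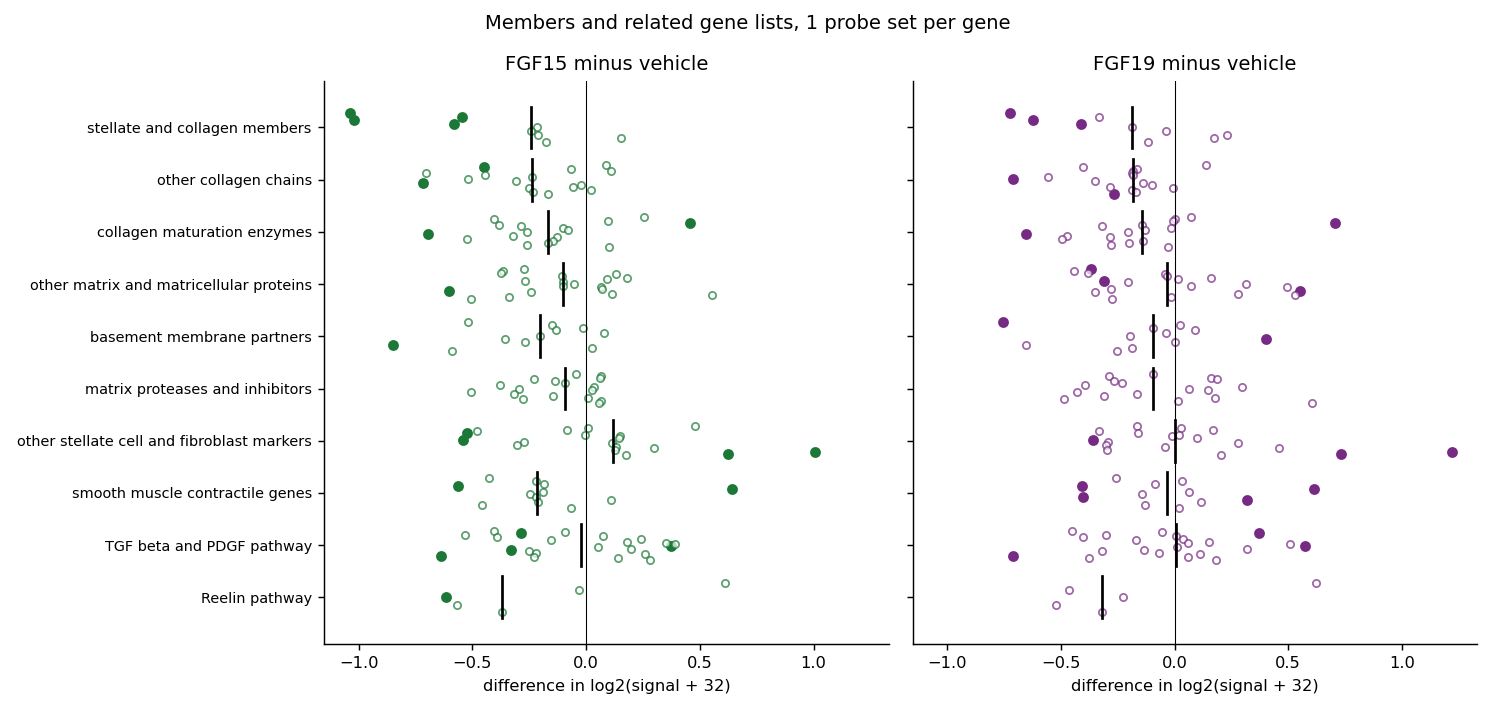
Differences from vehicle in log2(signal + 32) for the tested genes of the 10 chosen and of each related list, 1 probe set per gene, with FGF15 in the left panel and FGF19 in the right. Points are genes, filled where the adjusted p is under 0.05, and the bar is the median of the list. The chosen genes have medians of -0.24 and -0.19, and the other collagen chains -0.24 and -0.18, beside -0.05 and -0.07 over all probe sets. With FGF15 the median of the chosen genes is the value of Des, which read in the range of silent genes.

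Ccn2, Nid1 and Tgfbr2 also differed between the hormones themselves. FGF19 minus FGF15 was 1.15 for Ccn2 (limma adjusted p = 0.000414), 0.76 for Nid1 (adjusted p = 0.00279) and 0.66 for Tgfbr2 (adjusted p = 0.000961). Without the first FGF19 array these were 1.08 (adjusted p = 0.00902), 0.78 (adjusted p = 0.0260) and 0.66 (adjusted p = 0.0107). Dimmer probe sets of Nid1 (0.63, adjusted p = 0.0416) and of Tgfbr2 (0.54, adjusted p = 0.111) had the same sign, and only that of Nid1 passed. With all probe sets of Tgfbr2 averaged, FGF19 minus FGF15 was 0.33 and missed the threshold (adjusted p = 0.0954). That average includes the Tgfbr2 probe set too dim to be tested. It was the 1 of 21 alternative settings in which Tgfbr2 was not called. Acta2 had the same order of groups as these 3 genes and did not pass.

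**Figure D5:**
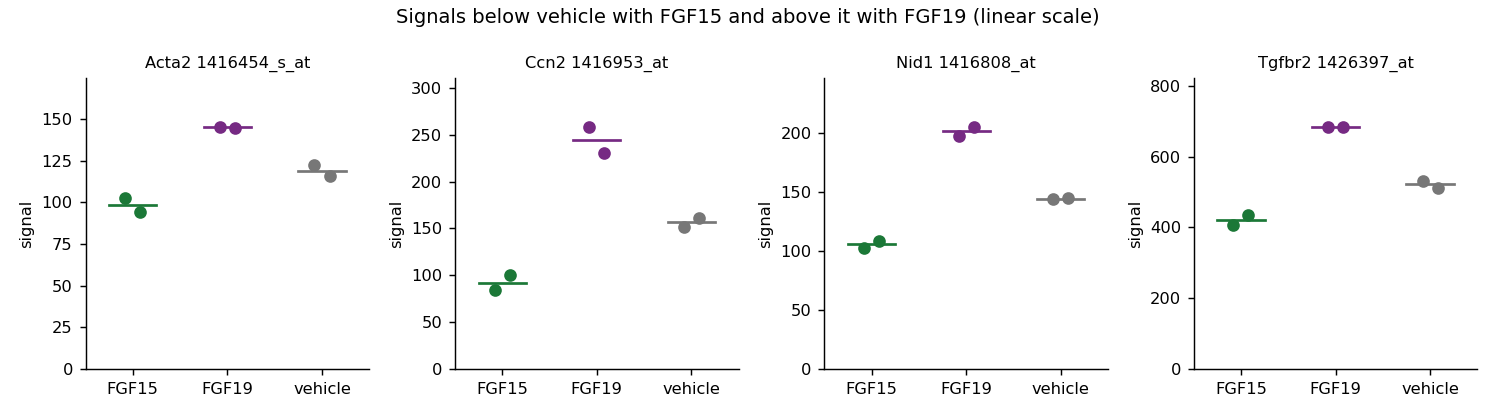
Deposited signal on each array for the probe sets of Acta2, Ccn2, Nid1 and Tgfbr2, on linear axes that start at 0, with points for the 2 arrays of each group and a bar for the group mean. In all 4 panels both FGF15 arrays lie below and both FGF19 arrays above the vehicle arrays.

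Most Kupffer cell markers were lower with both hormones, while few markers of the other liver cell types were called. Over all probe sets, 5.81% were called lower with FGF15 and 6.34% with FGF19. Of 11 Kupffer cell markers, 10 were lower with FGF15 and 9 with FGF19, and their summed signal was 3484 to 3608 with FGF15 and 3499 to 3534 with FGF19, against 6427 to 6525 with vehicle. Of 13 endothelial markers, 1 was lower with FGF15 (Lyve1, a hyaluronan receptor, -0.61) and 0 was called with FGF19 (3 had an unadjusted p under 0.05), and they summed to 2340 to 2367 with FGF15 and 2392 to 2398 with FGF19, against 2574 to 2581 with vehicle. Of 4 cholangiocyte markers tested, 0 was called by limma with either hormone, and 1 with each had an unadjusted p under 0.05. Of 7 hepatocyte markers, 1 was lower with FGF15 (Tat, tyrosine aminotransferase, -0.73) and 0 was called with FGF19, where 4 had an unadjusted p under 0.05. Cholangiocyte markers summed to 137.8 to 179.2 with FGF15 and 151.3 to 153.8 with FGF19, against 162.7 to 198.0 with vehicle. Hepatocyte markers summed to 56842 to 61103 with FGF15 and 50809 to 64902 with FGF19, against 66368 to 67955 with vehicle. Of 5 mesothelial markers on the array, 4 were too dim to test, and the other, Krt8, which hepatocytes also express, was lower with both hormones. Lyve1, Tat and Krt8 were named after their values were known. Whether any of these cells had a part in the lower collagen signals was not tested.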

How the data were processed

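Liver RNA of FGF15, FGF19 and vehicle mice was measured on 1-colour arrays, 2 per group, grouped by GEO's labels. The authors deposited intensity signals on a linear scale, 1 for each probe set on each array. All arrays have a common trimmed mean, but which software summarised and scaled them is not given in the sources used here. Detection calls were not used, and the number of arrays limits the precision.

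Of 22690 probe sets, 64 controls were set aside. Signals were taken as log2(signal + 32), without further scaling, and probe sets under the 25th percentile of the mean (roughly a signal of 14.0) were dropped, which leaves 16969. One model of all 6 arrays was fitted with limma 3.58.1 in R 4.3.3 (lmFit, eBayes with an intensity trend), two-sided, with Benjamini-Hochberg adjustment over all probe sets tested and a threshold of 0.05. The code was tested on simulated data. A probe set was named where the platform annotation pairs it with 1 gene (20380 probe sets, of which 20351 were updated through Entrez IDs). The members and lists were chosen with earlier results of these data known. The text names every member probe set and, from each related list, up to 3 tested genes with the smallest p against vehicle, each by its probe set of highest mean. Genes named outside this rule are stated as such.

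Replicate numbers recur in all groups. Deviations of same-numbered arrays from their group means correlated at 0.08 (vehicle and FGF15), -0.03 (vehicle and FGF19) and 0.06 (FGF15 and FGF19), so the number was not used as a pairing. The 21 alternatives covered the constant added, normalization, filter, probe sets per gene, prior, weights, arrays in the model, replicate block, threshold and each array left out. Promoter windows came from RefSeq (GRCm38.p6). Plots used matplotlib 3.10.9 (Python 3.11.15).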

Additional observations from a re-analysis of the deposited data

Results flagged for a closer look

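Acta2 (1416454_s_at) stands out because both FGF15 arrays lay below and both FGF19 arrays above the vehicle arrays. FGF19 minus FGF15 was 0.44 on the log2 scale. The test of that difference missed the threshold (limma adjusted p = 0.0630).

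Ccn2 (1416953_at), Nid1 (1416808_at) and Tgfbr2 (1426397_at) differed between FGF19 and FGF15 by the test of the difference itself. FGF19 minus FGF15 was 1.15 for Ccn2, 0.76 for Nid1 and 0.66 for Tgfbr2. With all Tgfbr2 probe sets averaged, including 1 too dim to be tested, it was 0.33 and not called (limma adjusted p = 0.0954). Groups of 2 arrays are too small for a single array to be tested as an outlier.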

How the results depend on the processing

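The number of arrays and the low signal of Col1a1, Des, Timp1 and the second Col1a2 and Col3a1 probe sets limit these results. Under the 21 alternatives, Col3a1 with FGF15 and the brighter Col4a1 probe set with FGF15 were called in all 21, and Col3a1 with FGF19 in 20. Centring arrays on their medians moved the median difference of all probe sets by over 0.1, to 0.07 for FGF15 and FGF19 minus vehicle. The called probe sets were then 72.1% higher with FGF15 (44.9% as deposited) and 78.2% higher with FGF19 (44.8% as deposited). Both Col4a1 probe sets then lost their FGF19 call (-0.27 and -0.35). Between the hormones 72.7% were higher without an intensity trend, against 59.6%.

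Of the 14 probe sets, calls with FGF15 numbered 5. With FGF19 they numbered 4, and 2 with no filter and 1 without a trend. With the mean of probe sets per gene the unit is the gene, and 3 of 9 genes were called with FGF15 and 2 of 9 with FGF19, beside 4 and 3 genes with a called probe set. Between the hormones, called probe sets of the 14 numbered 0, and 1 with centred arrays, 1 with cyclic loess and 2 at a threshold of 0.10. Leaving out arrays gave 2 to 5 with FGF15, 0 to 4 with FGF19 and 0 between hormones. Over all features, the mean per gene called 1166 genes with FGF15 and 1261 with FGF19, while 1789 and 1949 probe sets were called as reported. Over all probe sets, no trend gave 863 with FGF15, 911 with FGF19 and 194 between hormones, beside 562. A threshold of 0.10 gave 2961 with FGF19 and 926 between hormones. Leaving out arrays gave 744 to 1808 with FGF15, 755 to 1956 with FGF19 and 317 to 484 between hormones. With the replicate number as a block, 1817 were called with FGF15, 2042 with FGF19 and 580 between hormones, and the counts of the 14 did not change. Of the counts of called genes per list, 1522 stayed within 1.5 times of the reported count and 242 did not. Many of the reported counts were 0, and a left-out array does not change differences that do not use it. This tally therefore says little about stability. Of the differences of named probe sets, 249 lost their call, 79 gained one and 47 changed sign, while 2364 did none of these. The cause of these moves was not tested.

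None of the differences that changed sign was called as reported. The second Col1a2 probe set turned to 0.027 (FGF15) and 0.068 (FGF19) with quantile normalization, 0.054 and 0.090 with centred arrays and 0.027 and 0.064 with loess. With FGF19, Des turned to 0.084, 0.11 and 0.053, the dimmer Acta2 probe set to 0.085, 0.095 and 0.070, and Col8a1 to 0.0095 (quantile) and 0.0094 (centred). The brighter Sparc probe set turned to 0.029 when centred, Tgfbi to 0.012 and the second Bgn probe set to 0.066, and Itgb1 to 4.1e-04 with the mean per gene. With FGF15 the dimmer P3h1 probe set turned to 0.076 (quantile), 0.080 (centred) and 0.085 (loess). Leaving out arrays gave, for FGF15 minus vehicle, -0.29 to 0.17 for the second Col1a2 probe set, -0.67 to 0.18 for Des, -0.079 to 0.22 for the dimmer Acta2, -0.063 to 0.13 for Timp3 and -0.21 to 0.13 for the dimmer P3h1. For FGF19 minus vehicle it gave -0.28 to 0.17 for that Col1a2 probe set, -0.46 to 0.38 for Des, -0.44 to 0.027 for the dimmer Sparc, -0.083 to 0.26 for the second Tgfbr2 and -0.030 to 0.35 for the second Hspg2. For FGF19 minus FGF15 it gave -0.047 to 0.11 for the dimmer Col1a1, -0.22 to 0.24 for the second Col1a2, -0.052 to 0.25 for the second Col4a1, -0.057 to 0.12 for Dcn, -0.27 to 0.028 for the dimmer Acta2, -0.014 to 0.053 for Reln, -0.013 to 0.13 for the brighter Sparc and -0.23 to 0.24 for the dimmer Sparc.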
